A study of Mus musculus with 2 samples.

Results

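The 10 genes described here encode proteins of the synaptic vesicle: Syn1, Syn2, Syp, Syt1, Sv2a, Sv2b, Rab3a, Slc17a7, Syngr1 and Syngr3. They were taken by symbol from the deposited tables of transcript models, and all 10 were found, among 18366 annotated mouse genes with at least 1 read. The series holds 2 long-read RNA libraries of 1 group: the left cerebral cortex of 14 day old males of B6CASTF1/J, a first-generation cross between mouse strains, each made from 2 µg of total RNA with spike-in RNA added. There is no treatment, mutant or second tissue, so the comparisons are between genes, between forms of a gene and between the libraries. The 2 samples share 1 donor identifier, while their descriptions speak of several males, so the labels do not settle whether they are separate animals or pools. The tests below set the difference between the libraries against counting error only.

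Synaptic vesicles store neurotransmitter in the nerve terminal and release it when calcium enters. Synapsins tie vesicles into a reserve cluster, Slc17a7 (VGLUT1) loads them with glutamate, Rab3a is a small GTPase on their surface, and Syt1 is the calcium sensor of fast release. Synaptophysin (Syp) and the synaptogyrins are related proteins with 4 membrane spans, and the SV2 proteins are transporter-like glycoproteins of the vesicle membrane. Syn1 and Syn2 are each made as a long a form and a shorter b form that differ at the C-terminal end.

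The places where the members' transcripts part are shown first, since the read counts below turn on them. All sequences are reference sequences on GRCm38.p6 (mm10), 5′ to 3′ on the strand of the gene. Those of transcripts are from GENCODE M21, and each starts with the last 18 bases of the exon before the choice. In Syn1 (X:20860511-20921004, minus strand) both forms have 13 exons, and the acceptor of the last one lies at 20861609 in the a form and at 20861571 in the b form. The capitals mark the 38 bases that the a form alone includes, and both sequences run to the end of the stop codon.
Syn1 a (Syn1-201): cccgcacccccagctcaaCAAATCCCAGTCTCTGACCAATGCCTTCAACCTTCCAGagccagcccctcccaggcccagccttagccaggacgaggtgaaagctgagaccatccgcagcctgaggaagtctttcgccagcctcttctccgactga
Syn1 b (Syn1-202): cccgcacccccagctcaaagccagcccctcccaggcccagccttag
The extra bases are not a whole number of codons, so the letters that follow are read in another frame. The a form codes 136 bases of the last exon, stop codon included, and the b form 28, which gives 706 and 670 codons in all.

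In Syn2 (6:115134902-115282006, plus strand) the forms part after base 115274256, within exon 11. The a form splices from there to exon 12 at 115278101, 3844 bases on, and the b form reads through into an extension of exon 11. Capitals mark the bases that differ, which are the first 68 bases of exon 12 in the a form and the 68 bases to the end of the stop codon in the b form.
Syn2 a (Syn2-201): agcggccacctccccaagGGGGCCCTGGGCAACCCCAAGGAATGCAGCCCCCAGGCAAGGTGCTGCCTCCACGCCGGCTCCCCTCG
Syn2 b (Syn2-202): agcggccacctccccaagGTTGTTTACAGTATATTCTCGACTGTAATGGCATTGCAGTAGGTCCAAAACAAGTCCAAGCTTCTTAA
The extension of the b form opens with GT, the letters with which the spliced intron of the a form begins. The a form has 586 codons and the b form 479.

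**Figure D1:**
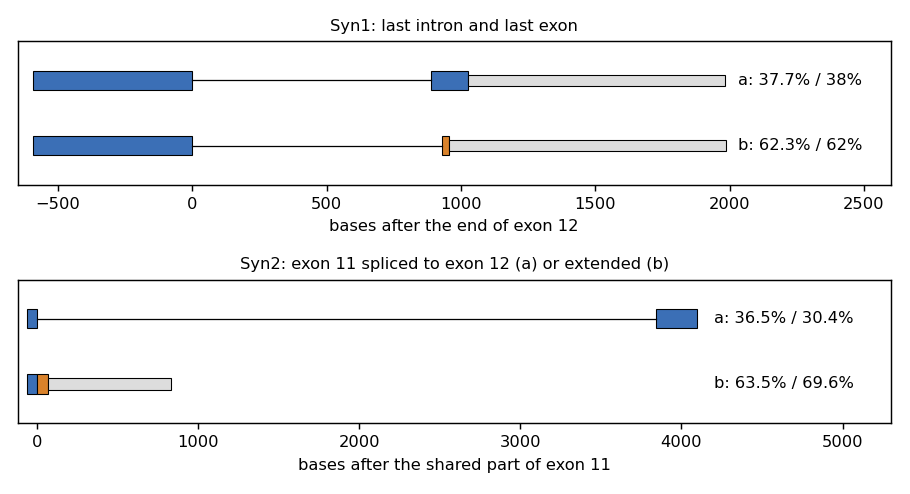
Maps of the 3′ ends of Syn1 and Syn2, with distance in bases from the last base before the forms part on the x axis. Blue boxes are coding exons of the a form or shared coding exons. Orange boxes are the coding part of the b form after the forms part, thin grey boxes 3′ untranslated parts and lines introns. In Syn1 the bases of the orange box are also in the a form, read in another frame. Syn2 a has 1 further exon, not drawn; the numbers at the right are the shares of reads in replicate 1 and replicate 2, with the b form above 60% in both genes.

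The b form led in both synapsin genes. Among Syn1 reads that held either acceptor, 149 were a and 246 were b in replicate 1, and 170 were a and 277 were b in replicate 2. The a share was 37.7% in replicate 1 (95% Wilson interval 33.1 to 42.6) and 38.0% in replicate 2 (33.7 to 42.6), or 37.9% ± 0.219 (SD, n = 2). The libraries' values were within each other's intervals and the difference did not pass the test (two-sided Fisher's exact test, p = 0.943, adjusted p = 1 over all 8182 form shares tested in 3720 genes). Intervals cover counting error only, since reads from amplified cDNA are not independent molecules.

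Syn2 had 136 a and 237 b reads in replicate 1, and 137 a and 313 b reads in replicate 2. Its a share was 36.5% (31.7 to 41.5) and 30.4% (26.4 to 34.8), or 33.5% ± 4.25 (SD, n = 2). The intervals overlapped and the difference did not pass the test (Fisher's exact test, p = 0.0744, adjusted p = 1). All b reads of Syn2 that were classed as Known, meaning that they match an annotated chain of introns, were assigned to Syn2-205: 224 reads in replicate 1 and 289 in replicate 2. GENCODE types Syn2-205 as a retained intron, but its introns are those of the coding transcript Syn2-202, so the reads are counted here as the b form. Syn2-201, the a form, had 129 reads in each library. Syn2 also had 33 and 46 reads in single-exon models, of which 97% and 100% were in models that overlap the last exon of Syn2-205. These single-exon reads were not counted in the a share.

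Syn1 reads outside Known models, most of them incomplete, also held more b than a. In Known models alone the a share of Syn1 was 39.6% in replicate 1 and 38.1% in replicate 2, and in the other models 35% and 37.9%. The last intron of Syn1 is 927 bases long in the b form. It was counted as retained in 27 reads against 395 that spliced there in replicate 1, which is 6.40% (4.43 to 9.15). In replicate 2 it was so counted in 42 against 447, or 8.59% (6.42 to 11.4). These reads were in incomplete chains that lack the last junction, the most frequent with 14 and 32 reads. The ends of models are approximate, so reads that keep the intron cannot be told from reads that end early. Of the 85 introns of the members' leading coding transcripts it was the 1 intron so counted in at least 5% of reads in both libraries. The next by mean, intron 3 of Slc17a7, was so counted in 1.93% and 2.37%. Intron 11 of Syn2-201, into which the Syn2 b form runs, was counted as retained in 0 reads of both libraries. The b reads of Syn2 are thus outside this count.

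The members differed widely in level. Transcripts are not cut into pieces for long reads, so a longer transcript does not give more reads by its length. Levels are therefore given as reads per 1000000 mouse reads of the library (CPM), without division by length. The members with the longest leading annotated transcripts were Sv2b (5307 bases), Syt1 (4745), Sv2a (4334) and Syngr1 (4180). They were also the lowest in level, and whether long transcripts are read less often was not tested. Together the members held 5658 reads, or 0.73% of the 775048 mouse reads, in replicate 1 and 6673, or 0.722% of 924222, in replicate 2. Their median was 548.4 CPM in replicate 1 and 546.4 CPM in replicate 2, beside a median over all genes tested of 32.3 and 31.4 CPM.

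**Figure D2:**
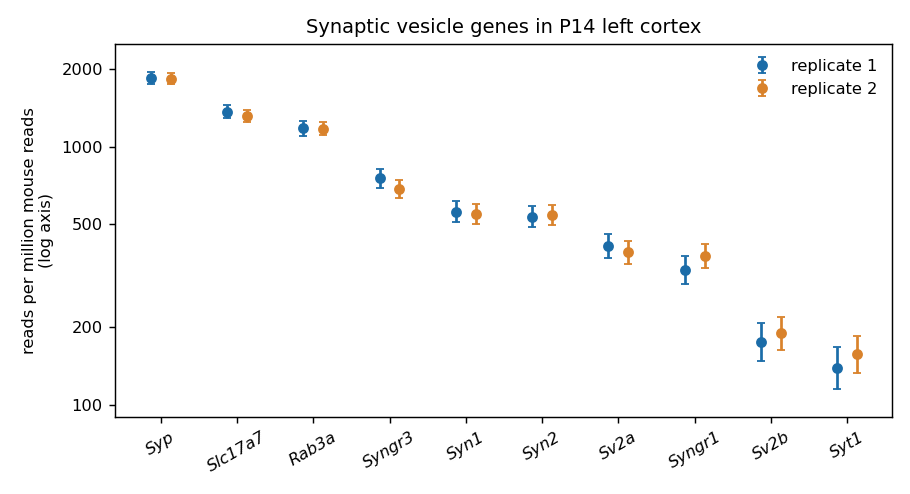
Level of each vesicle gene in CPM on a log axis, 1 point per library, with bars for the 95% Wilson interval of the count. Syp leads near 1840 CPM and Syt1 is lowest at 139.3 and 156.9 CPM, and the bars of Syn1 and Syn2 overlap.

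Among the tetraspan and SV2 proteins, Syp (X:7638471-7653256) was highest, at 1843.8 CPM in replicate 1 (1429 reads) and 1836.1 in replicate 2 (1697 reads), and ranked 20th of all genes with a read. Its relative Syngr3 (17:24685092-24689955) followed at 753.5 and 686.0 CPM. Syngr1 (15:80091334-80119501) had 332.9 and 376.5 CPM, lower than Syngr3 in both libraries. Sv2a (3:96181151-96195521), the broadly expressed SV2 protein, had 412.9 and 390.6 CPM. Sv2b (7:75114894-75309262) had 175.5 and 189.3 CPM, below Sv2a in both libraries.

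Slc17a7 (7:45163949-45176142), the glutamate transporter, had 1367.7 CPM in replicate 1 (1060 reads) and 1315.7 in replicate 2 (1216 reads). Rab3a (8:70754679-70758677) came next, at 1178.0 CPM (913 reads) and 1176.1 CPM (1087 reads). Syn1 stood at 560.0 and 549.7 CPM and Syn2 at 536.7 and 543.2 CPM. The calcium sensor Syt1 (10:108497650-109010982) was lowest, at 139.3 CPM (108 reads) and 156.9 CPM (145 reads), for a mean of 148.1 ± 12.4 (SD, n = 2).

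The order by mean level was Syp, Slc17a7, Rab3a, Syngr3, Syn1, Syn2, Sv2a, Syngr1, Sv2b and Syt1. The values of neighbours did not overlap between libraries, but Syn1 and Syn2 lay within each other's counting intervals in both libraries, and Sv2a and Syngr1 did in replicate 2. The means of the synapsins were 554.8 ± 7.29 and 540.0 ± 4.54 CPM (SD, n = 2). This order holds for all reads of a gene and changed with the reads counted. By spliced reads alone Syngr1 (45 and 72) was below Sv2b (128 and 163). By Known reads alone Syn2 (353 and 418) was above Syn1 (235 and 270). Syt1 was lowest in each count.

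No member passed the test for a difference in level between the libraries. In the two-sided Fisher's exact test on the reads of each gene, 236 of 11203 genes with at least 10 reads passed an adjusted p of 0.05 (2.11%), and 0 of the 10 members did. Of those genes, 123 were higher in replicate 2 (1.10%) and 113 in replicate 1 (1.01%). At an unadjusted p under 0.05 the counts were 1254 of the 11203 genes and 0 of the 10 members. The members' log2 ratios of replicate 2 over replicate 1 ran from -0.14 (Syngr3, 95% interval -0.30 to 0.03) to 0.18 (Syngr1, -0.06 to 0.41). Their median was 0.00, beside -0.01 for all genes tested.

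The libraries were not alike in other cells' markers. Summed striatal markers were at 927.7 CPM in replicate 1 and 222.9 in replicate 2, with 5 of 6 tested genes called, and oligodendrocyte markers at 2497.9 and 1617.6 CPM, with 2 of 3 called. Excitatory markers, Slc17a7 among them, summed to 3753.3 and 5366.7 CPM, with 1 of 6 called, Nrgn (1941.8 and 3525.1 CPM). Without Nrgn the other 5 summed to 1811.5 and 1841.6 CPM, and the log2 ratios of Slc17a7 (-0.06), Neurod6 (-0.22) and Tbr1 (-0.24) were below 0. Those of Camk2a (0.65, interval 0.19 to 1.11) and Nrn1 (0.41, 0.12 to 0.70) were above 0. The median log2 ratio of the excitatory list was 0.18. Inhibitory markers summed to 455.5 and 394.9 CPM with 0 of 5 called; without Gad1 (303.2 and 221.8 CPM) the sum was 152.3 and 173.0, and the list's median log2 ratio was 0.09. Choroid plexus markers summed to 38.7 and 251.0 CPM, mostly Ttr (36.1 and 246.7), the 1 gene tested there, which was called. Red blood cell markers summed to 214.2 and 428.5, with 2 of 2 called. Astrocyte markers summed to 2304.4 and 2728.8, with 1 of 4 called. Microglial markers summed to 216.8 and 180.7 and endothelial markers to 379.3 and 390.6, with 0 of 2 called in each. The part of these differences in the members' values was not tested. In tissue RNA, fewer cells of a type and less RNA per cell cannot be told apart.

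Paralogs of Syp, Rab3a, Slc17a7 and the synapsins were lower than the member itself in both libraries, and several synaptotagmins were higher than Syt1. Of 24 paralogs listed, 23 had a read and 19 were tested, and 1 differed between libraries: Synpr, the synaptophysin relative synaptoporin, with 181 and 141 reads (log2 ratio -0.61, interval -0.93 to -0.30). Its adjusted p in the exact test was 0.0148. The highest paralogs were Syt11 (341.1 ± 6.57 CPM), Syt13 (320.4 ± 15.2 CPM) and Syt16 (290.8 ± 17.2 CPM; SD, n = 2), each above Syt1 in both libraries. Rab3b, Rab3c and Rab3d had means of 61.9, 46.8 and 27.1 CPM against 1177.1 for Rab3a. Slc17a6 (VGLUT2) had 13 reads in each library, and Slc17a8 (VGLUT3) had none. Syn3 had 2 and 1 reads and Sv2c 3 and 2.

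Of 12 other vesicle proteins listed, 11 were tested and 1 was called, Atp6ap2, an accessory protein of the proton pump, with 353 and 303 reads (log2 ratio -0.47, interval -0.70 to -0.25). Its adjusted p in the exact test was 0.00342. The highest of the 12 were Vamp2 (1179.6 ± 109.9 CPM), Scamp5 (501.0 ± 32.2) and Scamp1 (413.1 ± 56.3). Of 11 regulators and effectors of Rab3, 10 were tested and 0 were called. Rph3a, the Rab3 effector rabphilin, had a mean of 166.1 ± 36 CPM and Doc2a, a related calcium-binding protein, 109.4 ± 7.75 (SD, n = 2). Median log2 ratios were -0.13 for the paralogs, -0.07 for the other vesicle proteins and -0.13 for the Rab3 group.

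Members differed in how completely their transcripts were read. The deposited classes separate Known reads, incomplete splice matches (part of an annotated chain), NIC (annotated splice sites in an unannotated combination), NNC (at least 1 unannotated site) and Genomic reads. Some deposited NIC models also hold an unannotated site, as in Rab3a below. Syngr3 was Known in 96.6% and 93.1% of reads, Slc17a7 in 85.6% and 82.6% and Syn2 in 84.9% and 83.3%. Syngr1 was Known in 15.5% and 17.2% and Syt1 in 13.9% and 12.4%. The members' median was 68.1% and 64.5%, beside 84.6% and 83.9% for the median of 1362 genes with at least 108 reads in both libraries.

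**Figure D3:**
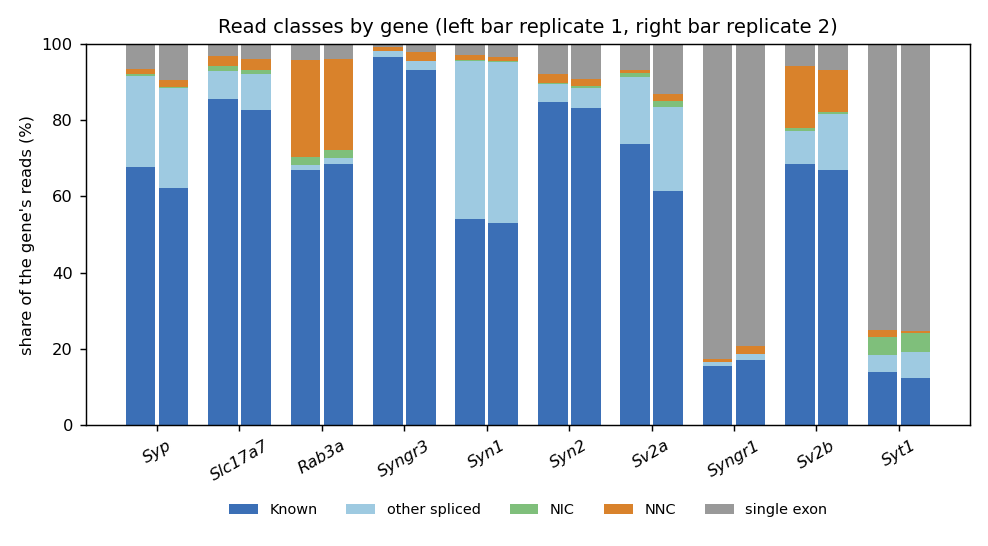
Share of each gene's reads by class in percent, genes in order of level, with replicate 1 at the left and replicate 2 at the right of each pair; "other spliced" holds the incomplete and other spliced reads and grey the single-exon models. Syngr1 and Syt1 are mostly grey, Rab3a and Sv2b have a visible NNC part, and Syn1 and Syp hold many incomplete spliced reads.

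Most reads of Syngr1 and Syt1 held no splice junction. Single-exon models took 82.6% of Syngr1 reads in replicate 1 (213 reads) and 79.3% in replicate 2 (276 reads), and 75% (81 reads) and 75.2% (109 reads) of Syt1 reads. Across the 1362 genes the median was 2.02% and 2.47%, and the 95th percentile 35.4% and 39.3%. Of these Syngr1 reads 213 and 275 were in models that overlap the last exon, and of the Syt1 reads 80 and 108. The last exon is 3647 bases long in Syngr1-201 and 3095 in Syt1-201. Sv2b, whose last exon is nearly as long (2882 bases), had 5.88% and 6.86% in single-exon models. Only 45 and 72 Syngr1 reads and 27 and 36 Syt1 reads could be used to tell spliced forms. The deposited label of such reads differed between libraries: the leading single-exon model of Syt1 was an incomplete splice match in replicate 1 (80 reads) and Genomic in replicate 2 (108 reads).

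**Figure D4:**
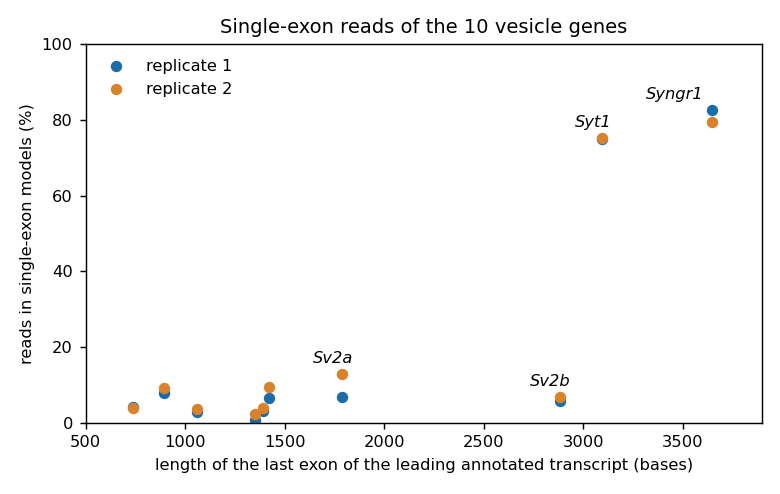
Share of reads in single-exon models in percent against the length of the last exon in bases, 1 point per gene and library. Syt1 and Syngr1 stand at 75% or more, and the other 8 genes, Sv2b included, at 13% or less.

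Syn1 and Syp held many spliced reads that lack the first exons. Such suffix reads were 35.3% and 33.9% of Syn1 reads and 23.8% and 26.2% of Syp reads, beside a median of 3.15% and 3.72% over the 1362 genes. In Syp a single chain that holds the last junction alone had 220 reads in replicate 1 (15.4%) and 257 in replicate 2 (15.1%), and a chain with the last 4 exons had 66 and 110. The full chain, Syp-201, had 968 reads (67.7%) and 1053 (62.1%). In Syn1 the incomplete reads were spread over more chains, the most frequent with 40 and 41 reads. The ends of models are approximate, so no start site is read from them.

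Rab3a was made with 2 ends of exon 1 that lie 6 bases apart. Both are upstream of the start codon, which opens exon 2, and the 220 codons are the same. The sequence shows the end of exon 1 and the start of intron 1 at 8:70754852-70754881, from the RefSeq promoter table. Capitals mark the 6 bases between the splice donors.
Rab3a exon 1 end: agcttagagaggGTAAGGgtgagcgcaacc
The donor before the capitals, at 70754863, is that of the annotated Rab3a-201, and the donor after them, at 70754869, is in no annotated transcript. In this reference the next 2 bases are GT after both; the bases of the reads themselves, which come from a cross of strains, were not analysed here. Annotated Rab3a-204 ends its exon 1 at 70754868, inside the capitals, where the next 2 bases are GG. No read of either library used that annotated donor.

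Of the reads spliced into exon 2 at 70755856, 587 in replicate 1 (71.6%, interval 68.4 to 74.6) and 716 in replicate 2 (73.9%, 71.0 to 76.6) came from the donor of Rab3a-201. The unannotated donor had 225 reads (27.4%) and 250 (25.8%). The difference in the leading donor's share did not pass the test (Fisher's exact test, p = 0.286, adjusted p = 1). At a less used acceptor of exon 2, 70755831, the donor of Rab3a-201 had 12 of 18 reads in replicate 1 (66.7%, 43.7 to 83.7) and 4 of 13 in replicate 2 (30.8%, 12.7 to 57.6), so the leading donor differed between libraries on few reads (Fisher's exact test, p = 0.0732, adjusted p = 1). The unannotated full chain alone had 222 and 246 reads, which is 24.3% and 22.6% of the gene's reads. It makes up most of the NNC share of Rab3a, 25.4% and 24.0%, beside a median of 2.17% and 2.15% over the 1362 genes. That share leaves out some reads with the unannotated donor: its full chain through 70755831 was classed NIC (5 and 6 reads).

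Sv2b had 2 annotated first exons, whose donors lie 669 bases apart and which leave the 683 codons the same. Of 116 reads spliced into exon 2 in replicate 1, 49 began with the first exon of Sv2b-201 (start 7:75308379) and 54 with that of Sv2b-202 (start 7:75309262). Of 142 in replicate 2, 81 and 44 did. Told by the whole chain in this way, a count chosen after seeing the data, the share of the Sv2b-201 exon was 42.2% (33.6 to 51.3) and 57% (48.8 to 64.9), with overlapping intervals (Fisher's exact test, p = 0.0241, not adjusted). By the rule applied to all genes, which counts each junction into exon 2 on its own, reads joined straight from the Sv2b-201 exon were 39 (33.6%, 25.7 to 42.6) and 73 (51.4%, 43.3 to 59.5). Those intervals did not overlap and gave the smallest p among the members' form shares (Fisher's exact test, p = 0.00539), but the adjusted p was 1. An unannotated donor at 7:75307966 had 17 and 11 reads spliced into exon 2. In 9 and 6 of them it closed an unannotated exon of 34 bases (7:75307966-75307999) that followed the first exon of Sv2b-201. The others held no junction at 75307999, so the exon of 34 bases is not read from them.

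Syt1 had an exon that starts at 1 of 2 acceptors, 10:108636673 or 10:108636664, and the choice adds or leaves out 9 bases, which is 3 codons. Capitals mark them.
Syt1 long: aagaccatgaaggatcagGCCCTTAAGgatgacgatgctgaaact
Syt1 short: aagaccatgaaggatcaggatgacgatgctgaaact
The long form had 18 of 23 reads in replicate 1 (78.3%, interval 58.1 to 90.3) and 27 of 34 in replicate 2 (79.4%, 63.2 to 89.7). The full chain with the short exon, in no annotated transcript as a whole, had 5 and 7 reads.

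Syngr1 had 2 last exons after the same exon 3. Syngr1-201 uses the one at 15:80115855 and has 234 codons, and Syngr1-202 uses the one at 15:80113166, 2689 bases before it, and has 191. Capitals mark the first 60 bases of each last exon.
Syngr1-201: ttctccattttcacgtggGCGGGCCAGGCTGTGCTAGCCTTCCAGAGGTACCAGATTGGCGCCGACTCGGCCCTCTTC
Syngr1-202: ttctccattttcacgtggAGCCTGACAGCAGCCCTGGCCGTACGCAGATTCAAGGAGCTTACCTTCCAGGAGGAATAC
The exon of Syngr1-201 had 35 reads and that of Syngr1-202 had 9 in replicate 1, and 56 and 9 in replicate 2. The share of the longer form was 79.5% (65.5 to 88.8) and 86.2% (75.7 to 92.5), a difference that did not pass the test (Fisher's exact test, p = 0.434, adjusted p = 1). The single-exon reads within the last exon of Syngr1-201 were not counted in this share.

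**Figure D5:**
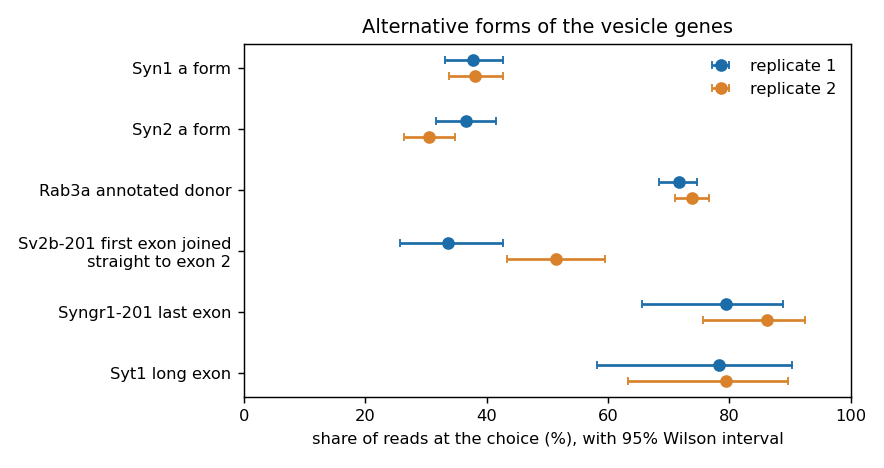
Share of the named form among reads that hold the choice, in percent, 1 point per library with its 95% Wilson interval. The intervals of the 2 libraries overlap for all forms drawn except the straight junction from the first exon of Sv2b-201, at 33.6% and 51.4%; counted with reads that pass through a small exon, its intervals overlap.

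In all, 8 form shares of the members had a minor form of at least 5% in both libraries. None of the 8 passed the test between libraries, beside 0 of all 8182 form shares (0%), of which 191 had an unadjusted p under 0.05 and the smallest adjusted p was 0.41. In the chi-square test of all models of a gene, 25 of the 3141 genes that had 50 or more reads in both libraries differed (0.796%), and 0 of the 10 members did. At an unadjusted p under 0.05 the counts were 266 of the 3141 genes and 4 of the 10 members, Sv2a, Syp, Sv2b and Syngr3. The members were not compared with genes of like read number. The smallest adjusted p of a member in that test was 0.45 (Sv2a), whose Known share was 73.8% in replicate 1 and 61.5% in replicate 2.

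Opposite to Syt1, unspliced antisense models held 39 reads in replicate 1 and 44 in replicate 2, which is 36.1% and 30.3% of the gene's own reads. One of them took 23 and 26 reads, spanned 10:108685387-108690214 in replicate 1 and 10:108685390-108690214 in replicate 2, and overlapped no annotated Syt1 exon. Syn1 had 19 and 16 antisense reads and Syn2 14 and 16. Syp, Sv2a, Rab3a and Syngr3 had 0 in both libraries. These counts hold reads of antisense models alone. Of all reads on the opposite strand, Syp had 5 and 8 and Rab3a 31 and 41, while Sv2a and Syngr3 had 0. Of the genes that lie inside synapsin introns, Timp4, within Syn2, had 35 and 36 reads, and Timp1, within Syn1, had 1 and 0.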

How the data were processed

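Per the text deposited beside the tables, transcript models were built for each library on mm10 with GENCODE M21 and spike-in sequences. The authors' deposited values are read counts per model, with no normalization. TALON is named in the deposited models. The aligner, and the version of any software, were not given in the sources used here.

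Gene reads are sums over all models that the deposited table gives a member's symbol. The libraries held 782521 reads in replicate 1 and 935052 in replicate 2, spike-ins included, so a member with 108 reads carries a wide counting interval. CPM divides by mouse reads. Unannotated spliced models were matched between libraries by chain of introns, and unannotated single-exon models were summed by gene. Forms were counted from the exon chains. A form share is the leading partner of a splice site against all others, with at least 10 reads in each library and a minor share of at least 5%; the Syn2 forms were told by the extension of exon 11 and added to that family. Gene reads and form shares were compared by two-sided Fisher's exact tests and isoform usage by chi-square tests (models under 10 reads merged), with SciPy 1.17.1 and Benjamini-Hochberg adjustment over all genes or form shares at 0.05. Log2 ratios have 0.5 reads added. The tests were checked on simulated counts. Alternatives used TMM (edgeR 4.0.16) and DESeq2 1.42.0 size factors, Known models alone, other minimums and each library alone. Promoter sequence is from RefSeq on GRCm38.p6. All members were named; of other lists, genes past the test, the 3 highest by mean CPM and paralogs of members, except 1 item that is not reported here. Members and lists were chosen with earlier results of these data known.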

Additional observations from a re-analysis of the deposited data

How the results depend on the processing

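Several values depended on which reads were counted. The median member level of 547.4 CPM became 376.1 with Known models alone and 603.4 when scaled to reads of annotated genes, and was 546.4 to 548.4 in single libraries. The count of genes that differed in isoform usage fell from 25 to 16 without incomplete and Genomic models and to 3 with Known models alone. The Syn1 a share of 37.9% became 38.9% with Known models alone and 37.5% with models of at least 2 reads, and was 37.7% to 38.0% in single libraries. The Syn2 a share was 30.4% to 36.5% in single libraries. The 6 form shares of members other than the synapsins became 2 with Known models alone, since unannotated chains were left out, and were 6 to 8 in single libraries. The count of 236 genes that differed in level was 166 with Known models alone and 189 to 234 under the other settings, and no member passed under any of them. No paired analysis was possible because there is 1 group. With 2 libraries no sample can be told to stand apart, and forms of Syt1 and Syngr1 rest on few spliced reads.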
